A study of Homo sapiens with 4 samples.

Results

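The TGF-beta genes described here were 10 genes read from the deposited comparison of BLU6864 at 24 h with BLU6864 at 6 h by their symbols: the ligands TGFB1, TGFB2 and TGFB3, the latent binding proteins LTBP1 and LTBP2, the receptors TGFBR1, TGFBR2 and TGFBR3, and the signal proteins SMAD3 and SMAD7. All 10 were found among the 20372 genes of the table, and all 10 had enough reads to be tested. TPC1 is an established line of human papillary thyroid carcinoma with a CCDC6-RET fusion, and BLU6864 is a RET kinase inhibitor. Both groups received the inhibitor, for 6 h or for 24 h, with 2 RNA sequencing libraries each. The dose is 100 µM in the labels, whereas the methods have the same figure in nM. The titles of both 24 h libraries, and of neither 6 h library, carry the word re-analysis. The labels do not say what it marks, and a difference tied to it cannot be told apart from that of time. Because vehicle libraries were not analysed here, the effect of the drug and that of time in culture cannot be told apart.

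TGF-beta is secreted as a latent complex, in which the ligand is held by its own propeptide and anchored to the matrix by latent TGF-beta binding proteins. Freed ligand binds the type II receptor TGFBR2, which phosphorylates the type I receptor TGFBR1, and TGFBR1 in turn phosphorylates SMAD2 and SMAD3. These join SMAD4 and enter the nucleus, where their targets include SMAD7, an inhibitor that acts back on the receptor. In thyroid follicular cells the pathway is known to restrain growth, and in carcinomas it is linked to epithelial-mesenchymal transition.

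The libraries held between 23917056 and 27457040 counts on genes, and 12876 genes were tested with edgeR's quasi-likelihood test. Libraries of one time point were counted separately, since they differed beyond sampling noise (chi-square over its degrees of freedom 10.0 for the 6 h pair, 7.65 for the 24 h pair). Nothing in the labels says that they came from separate cultures, so P values measure only the spread between these libraries. Of the markers checked, PAX8 was high in every library, with between 19124 and 22978 counts, while NKX2-1 and TSHR, which also define thyroid follicular cells, had 0. Of 7 thyroid markers 3 were tested. The summed level of the 7 was 819 to 876 CPM, counts scaled to library size, at 6 h and 778 to 813 at 24 h. PAX8 made up most of this sum and was not called. FOXE1 rose by 0.84 on the log2 scale (edgeR adjusted P = 1.37e-07), and TG fell by 1.09 (edgeR adjusted P = 2.77e-07). The 6 epithelial markers summed to 116 to 121 at 6 h and 125 to 127 at 24 h. EPCAM had no more than 11 counts and CDH1 no more than 8, while KRT8 had between 1720 and 1811 in every library. Within this sum KRT7 and KRT18 rose, by 0.84 and 0.37 on the log2 scale, and KRT19 fell, by 1.59. Most leukocyte markers were near 0, with 6 of 8 at 3 counts or fewer in every library and PTPRC at no more than 5. The 8 summed to 1.79 to 2.09 CPM at 6 h and 3.39 to 3.47 at 24 h. CD14 made up most of this and was the one marker of the list tested. It had 47 and 41 raw counts at 6 h and 85 and 91 at 24 h (log2 fold change 0.95, edgeR adjusted P = 0.000244). Of 6 endothelial markers, PECAM1 was not found in the deposited table. CDH5 had at most 1 count and EMCN 0. VWF fell from 16 and 11 raw counts at 6 h to 3 and 5 at 24 h (log2 fold change -1.77, edgeR adjusted P = 0.0071). The 5 endothelial markers found summed to between 20.0 and 21.3 CPM at 6 h and between 1.06 and 2.08 at 24 h. Most of this sum was KDR, the VEGF receptor, with 485 and 517 raw counts at 6 h and 44 and 22 at 24 h (log2 fold change -3.97, edgeR adjusted P = 4.83e-17). Fibroblast markers summed to between 23.8 and 24.5 at 6 h and between 9.70 and 11.0 at 24 h, with COL3A1 at 0 and DCN at no more than 1 count. Of this list COL1A1 and PDGFRB fell, by 1.57 and 1.48 on the log2 scale, and LUM rose, by 0.75. The part of these markers in the results below was not tested.

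The TGF-beta genes changed in both directions between the times. From 6 h to 24 h of BLU6864, TGFB2, LTBP2, TGFBR1, SMAD3 and SMAD7 rose, whereas TGFBR2, TGFBR3 and LTBP1 fell, with an adjusted P under 0.05 from edgeR. TGFB1 and TGFB3 did not pass. This makes 8 of 10 genes called, against 65.6% of all genes tested, with 5 higher against 33.0% and 3 lower against 32.6%. The methods of the study ask for a fall of more than 0.5 on the log2 scale at P under 0.01, with DESeq2. Here these cutoffs were applied in either direction, with the edgeR P before adjustment. Of the 10 genes 7 met them, against 35.1% of all genes, with 4 higher against 17.4% and 3 lower against 17.7%. Libraries of the 2 time points did not overlap in 9 genes, a pattern found in 81.8% of all genes. The median absolute log2 fold change was 1.14 for the 10 genes and 0.37 for all genes, and the signed medians were 0.25 and 0.0029. As the 10 genes were chosen with earlier results of these data known, these comparisons say nothing of the family beyond them. In bulk RNA, a change in the number of cells that express a gene and a change in the RNA per cell cannot be told apart.

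**Figure D1:**
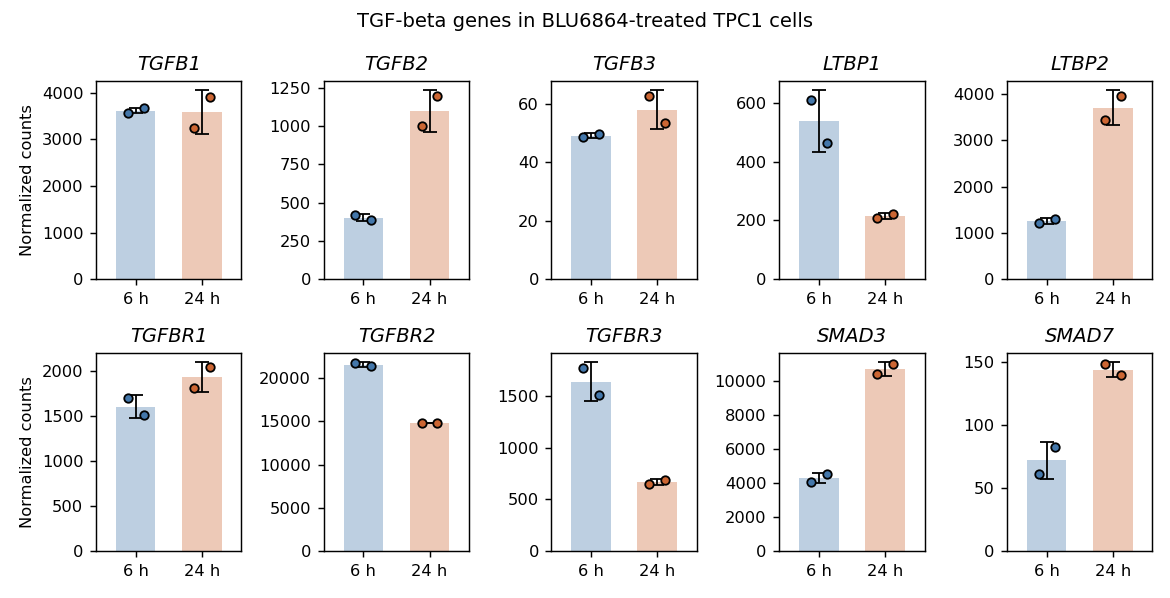
Normalized counts of the 10 genes at 6 h and 24 h of BLU6864, with each point a library, bars at the mean of 2 libraries and error bars of 1 SD. TGFB2, LTBP2, SMAD3 and SMAD7 stand higher at 24 h in both libraries, and LTBP1, TGFBR2 and TGFBR3 lower.

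The ligand genes diverged, with TGFB2 rising 2.74-fold while TGFB1 stayed within its error. TGFB2 (ENSG00000092969, chromosome 1 of hg19 from 218519577 to 218617961) had 418 and 385 normalized counts at 6 h and 1004 and 1194 at 24 h. Both 24 h libraries lay far above both 6 h libraries. On the log2 scale it rose by 1.46 (standard error 0.0947, adjusted P = 3.06e-13 in edgeR). A change of larger size was found in 8.78% of the genes tested. TGFB1 (ENSG00000105329, chromosome 19 from 41807492 to 41859816), the most widely expressed isoform, had 3575 and 3664 normalized counts at 6 h and 3248 and 3913 at 24 h. Its 24 h libraries lay on either side of the 6 h libraries. The log2 fold change was -0.016 with a 95% interval from -0.18 to 0.15 (edgeR adjusted P = 0.871), and 97.9% of genes changed more. TGFB3 (ENSG00000119699, chromosome 14 from 76424442 to 76449334) was scarce, with 45 and 52 raw counts at 6 h and 63 and 55 at 24 h. The 24 h libraries were higher, but by little, and the log2 fold change of 0.24 had a 95% interval from -0.21 to 0.69 (edgeR adjusted P = 0.348).

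Both ligands that did not pass share their position with other genes in the table, and the strand setting of the counting is not given in the sources used here. TGFB1 overlaps HNRNPUL1 by 6012 bases, CCDC97 over its whole 14695 bases, and TMEM91 by 3001 bases. CCDC97 rose by 0.37 on the log2 scale (adjusted P = 0.000419 in edgeR), and the log2 fold changes of HNRNPUL1 and TMEM91 were 0.13 and -0.59 (adjusted P = 0.108 and 0.116). TGFB3 lies within IFT43, a gene of intraflagellar transport with 626 to 747 counts a library and a log2 fold change of -0.00036. HNRNPUL1 had 5843 to 7152 counts a library, and CCDC97 had 668 to 1039. The reads of TGFB1 and the scarce reads of TGFB3 are therefore less certain than those of the other genes. TGFB2 overlaps no other gene of the table.

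Set on a common scale of CPM per kilobase of the longest coding transcript, TGFB1 was by far the most abundant ligand transcript, and TGFB2 moved toward it. The ratio of TGFB1 to TGFB2 was 18.1 and 20.1 at 6 h, and 6.83 and 6.92 at 24 h. As a share of the 3 ligands, TGFB2 took 4.94% ± 0.355 (SD, n = 2) at 6 h and 12.6% ± 0.0674 at 24 h. TGFB1 went from 94.0% ± 0.349 to 86.3% ± 0.342 of the ligand transcripts, although its own level did not differ beyond its error. TGFB3 held 1.04% and 1.15%. The libraries of both times were well separated for TGFB1 and TGFB2, but 2 against 2 libraries cannot give an exact permutation P below 0.33, so no test was made of the shares.

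The upstream sequences of the ligand genes are shown because the rise was found for TGFB2 and not for TGFB1. They are the 250 bases before the RefSeq start nearest to the Ensembl canonical start, in the GRCh38.p14 build, 5′ to 3′ on the strand of the gene. A RefSeq window was found for 10 of the 10 genes. Capitals mark the motifs searched on both strands: TATAAA, the TATA box; GGGCGG, the GC box; CACGTG, the E-box; TGACG, a cyclic AMP response motif; TGACTCA, an AP-1 motif; GTCTG, a SMAD motif; and GTCTAGAC, the SMAD palindrome. A match on the other strand appears as its reverse complement.
TGFB1, chr19:41353923-41354172, minus strand: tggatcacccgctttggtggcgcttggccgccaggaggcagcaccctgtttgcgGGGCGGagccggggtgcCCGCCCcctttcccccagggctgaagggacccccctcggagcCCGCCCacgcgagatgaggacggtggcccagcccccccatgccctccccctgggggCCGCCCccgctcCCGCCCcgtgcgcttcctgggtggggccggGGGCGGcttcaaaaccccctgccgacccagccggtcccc
TGFB2, chr1:218345086-218345335, plus strand: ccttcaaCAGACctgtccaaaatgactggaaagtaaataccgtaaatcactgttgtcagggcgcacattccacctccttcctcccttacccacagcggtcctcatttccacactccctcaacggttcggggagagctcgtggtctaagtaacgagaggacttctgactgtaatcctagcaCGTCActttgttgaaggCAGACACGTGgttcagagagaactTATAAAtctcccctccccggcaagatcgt
TGFB3, chr14:75981996-75982245, minus strand: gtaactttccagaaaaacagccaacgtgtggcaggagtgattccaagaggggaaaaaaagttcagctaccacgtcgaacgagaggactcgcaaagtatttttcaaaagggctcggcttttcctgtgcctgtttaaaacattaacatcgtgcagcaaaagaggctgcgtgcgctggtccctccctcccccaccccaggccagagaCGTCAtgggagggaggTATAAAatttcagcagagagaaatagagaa

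TGFB1 and TGFB2 had no motif of this set in common. The TGFB1 window held 6 GC boxes, was 76.8% G or C and had no TATA box, whereas TGFB2 and TGFB3 each had a TATA box, at 29 and 30 bases before the start, and no GC box. Their G and C content was 50.4% and 49.2%, against a median of 58.0% over all windows. Each of the latter also had 1 TGACG match, 70 bases before the start in TGFB2 and 46 in TGFB3. TGFB2 alone of the 3 ligands had an E-box, at 49 bases, which overlaps by 1 base a GTCTG match on the other strand. Of all 35116 windows, 10.7% hold TATAAA, 42.6% GGGCGG, 6.34% CACGTG, 21.2% TGACG, 38.0% GTCTG, 4.2% TGACTCA and 0.182% GTCTAGAC. No window of the 10 genes held TGACTCA or GTCTAGAC. TGFB3 has 2 starts in RefSeq, and counts per gene do not show which was used. A match describes the letters only.

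Of the latent binding proteins, LTBP1 and LTBP2 moved in opposite directions. LTBP3 and LTBP4, outside the 10 genes, had more raw counts than either in every library, 4823 to 6524 and 3998 to 5074. Their log2 fold changes were 0.20 and 0.050 (edgeR adjusted P = 0.0223 and 0.592). LTBP2 (ENSG00000119681, chromosome 14 of hg19 from 74964873 to 75079306), a matrix protein of elastic fibers that carries the family name but is not known to bind latent TGF-beta, had 1213 and 1303 normalized counts at 6 h and 3438 and 3969 at 24 h. This 2.94-fold rise was the largest of the 10 genes, or 1.56 on the log2 scale (standard error 0.0789, adjusted P = 1.45e-15 in edgeR). LTBP1 (ENSG00000049323, chromosome 2 from 33172039 to 33624576), which binds the latent complex and anchors it to the matrix, had 612 and 463 normalized counts at 6 h. At 24 h its libraries had 208 and 222, below both 6 h libraries, which differed from each other more than the 24 h libraries did. LTBP1 was 2.49-fold lower at 24 h (log2 fold change -1.32, standard error 0.121, edgeR adjusted P = 3.20e-10).

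Scaled by transcript length, the LTBP2 to LTBP1 ratio went from 1.52 and 2.16 at 6 h to 12.7 and 13.7 at 24 h. LTBP2 made up 64.4% ± 5.65 (SD, n = 2) of the 2 transcripts at 6 h and 93.0% ± 0.371 at 24 h. The sequences upstream of this oppositely changing pair follow, with capitals as for the ligands.
LTBP1, chr2:32946703-32946952, plus strand: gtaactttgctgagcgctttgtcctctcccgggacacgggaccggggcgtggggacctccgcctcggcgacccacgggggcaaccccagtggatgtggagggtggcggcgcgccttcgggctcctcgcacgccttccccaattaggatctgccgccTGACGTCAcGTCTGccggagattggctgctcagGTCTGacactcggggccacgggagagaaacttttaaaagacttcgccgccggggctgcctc
LTBP2, chr14:74612238-74612487, minus strand: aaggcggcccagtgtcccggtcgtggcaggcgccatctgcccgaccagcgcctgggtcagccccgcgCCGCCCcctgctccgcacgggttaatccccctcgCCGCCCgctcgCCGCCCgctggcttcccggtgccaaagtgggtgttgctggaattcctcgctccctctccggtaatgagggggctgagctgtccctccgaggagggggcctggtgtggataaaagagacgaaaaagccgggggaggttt

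The 2 windows shared no match. LTBP1 had TGACG on both strands, 94 and 91 bases before the start, in copies that overlap each other by 2 bases, and GTCTG at 85 and 61 bases. LTBP2 had 3 GC boxes, at 183, 149 and 138 bases, and no other match. LTBP1 has 3 starts in RefSeq, and the sequence is that of the canonical one.

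Among the receptors, the signaling type I receptor rose slightly, and the type II receptor and the co-receptor fell. TGFBR2 (ENSG00000163513, chromosome 3 from 30647994 to 30735634) had 21762 and 21373 normalized counts at 6 h and 14792 and 14836.5 at 24 h, the most of the 10 genes at either time. The libraries of a time point were close together and those of the 2 times far apart. TGFBR2 fell by 0.54 on the log2 scale (standard error 0.0772, edgeR adjusted P = 8.31e-07), a 1.46-fold lower count at 24 h. TGFBR3 (ENSG00000069702, chromosome 1 from 92145902 to 92371892), also called betaglycan, presents TGF-beta2 in particular to TGFBR2. It had 1774 and 1506 normalized counts at 6 h and 647 and 685 at 24 h. TGFBR3 thus ended 2.46-fold lower, with no overlap between times (log2 fold change -1.30, standard error 0.0841, edgeR adjusted P = 2.76e-13).

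TGFBR1 (ENSG00000106799, chromosome 9 from 101866320 to 101916474) had 1692 and 1511 normalized counts at 6 h and 1810.3 and 2045 at 24 h. Both 24 h libraries were higher, but the nearest libraries of different times lay closer together than the libraries of either time. Its rise of 0.27 on the log2 scale passed (standard error 0.0770, adjusted P = 0.00349 in edgeR), but lay below the cutoff of 0.5 on size, and 61.4% of genes changed more. This call was lost without replicate 2 of the 24 h libraries (edgeR adjusted P = 0.0724) and without replicate 2 of the 6 h libraries (0.0898), while the other alternatives kept it.

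Per length, TGFBR2 made up 90.3% ± 0.749 (SD, n = 2) of the 3 receptor transcripts at 6 h and 88.9% ± 0.711 at 24 h. TGFBR1 went from 4.75% ± 0.279 to 8.20% ± 0.622, and TGFBR3 from 4.98% ± 0.470 to 2.90% ± 0.0893. The libraries of TGFBR1 and TGFBR3 overlapped in level at 6 h, and TGFBR1 lay above TGFBR3 in both libraries at 24 h. TGFBR2 transcripts outnumbered those of TGFBR1 by 18.1 and 19.9 times at 6 h and by 11.5 and 10.2 times at 24 h.

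**Figure D2:**
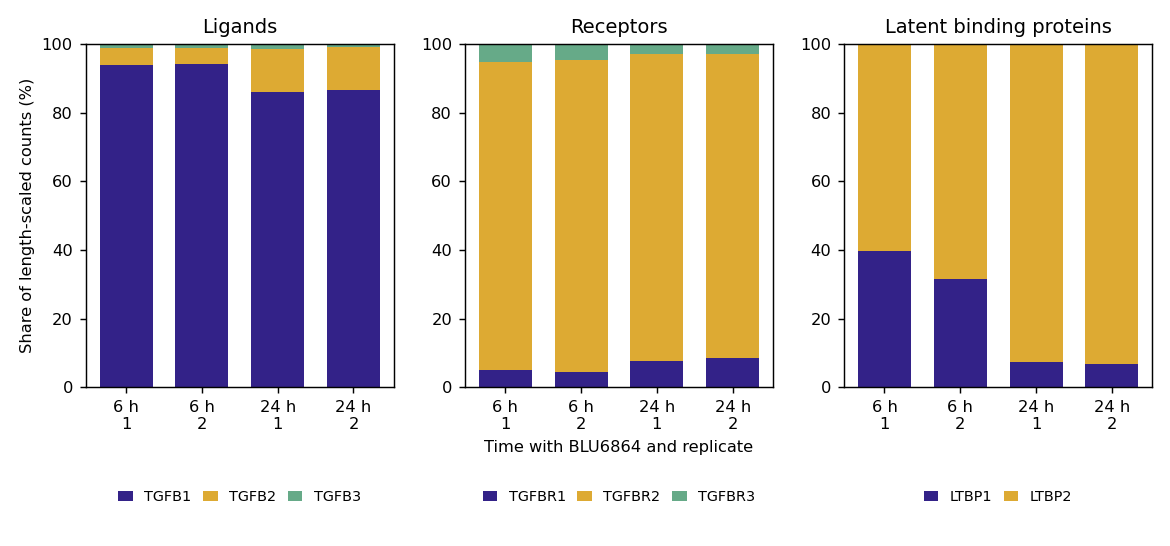
Share of each gene in the length-scaled counts of its class, in percent, with a bar for each of the 4 libraries. As means of 2 libraries, TGFB2 goes from 4.94% to 12.6% of the ligands and TGFBR1 from 4.75% to 8.20% of the receptors. LTBP2 goes from 64.4% to 93.0% of LTBP1 and LTBP2 together. The panel of latent binding proteins leaves out LTBP3 and LTBP4.

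Both signal proteins rose. SMAD3 (ENSG00000166949, chromosome 15 from 67356101 to 67487533), the transcription factor activated by TGFBR1, had 4068 and 4517 normalized counts at 6 h and 10438 and 10997 at 24 h. This is a 2.50-fold rise with wide separation of the libraries (log2 fold change 1.32, standard error 0.0768, edgeR adjusted P = 2.81e-14). The table lists another gene, RP11-342M21.2, within SMAD3, but at 0 counts in every library. SMAD7 (ENSG00000101665, chromosome 18 from 46446223 to 46477081), the inhibitory SMAD, was much scarcer, with 57 and 86 raw counts at 6 h and 149 and 144 at 24 h. Its 6 h libraries differed more in proportion than its 24 h libraries, and both lay below them. SMAD7 was 1.99-fold higher at 24 h, with a log2 fold change of 0.99 and the largest standard error among the genes called, 0.171 (edgeR adjusted P = 1.43e-05). With each library left out in turn its log2 fold change stayed between 0.80 and 1.22. The ratio of SMAD3 to SMAD7 per length was 34.2 and 28.3 at 6 h and 36.3 and 40.6 at 24 h.

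SMAD7 is a known direct SMAD target, so its upstream sequence is also given.
SMAD7, chr18:48950966-48951215, minus strand: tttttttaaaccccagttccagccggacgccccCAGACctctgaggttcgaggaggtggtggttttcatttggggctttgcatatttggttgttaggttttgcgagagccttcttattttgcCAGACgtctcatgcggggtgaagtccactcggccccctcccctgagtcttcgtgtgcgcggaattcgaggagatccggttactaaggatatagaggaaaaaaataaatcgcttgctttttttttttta

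This window held GTCTG on the opposite strand 217 and 128 bases before the start and no other motif of the set. It is the canonical one of 3 SMAD7 starts in RefSeq. The SMAD3 window, not shown, had 4 GC boxes and 1 E-box, and no GTCTG.

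**Figure D3:**
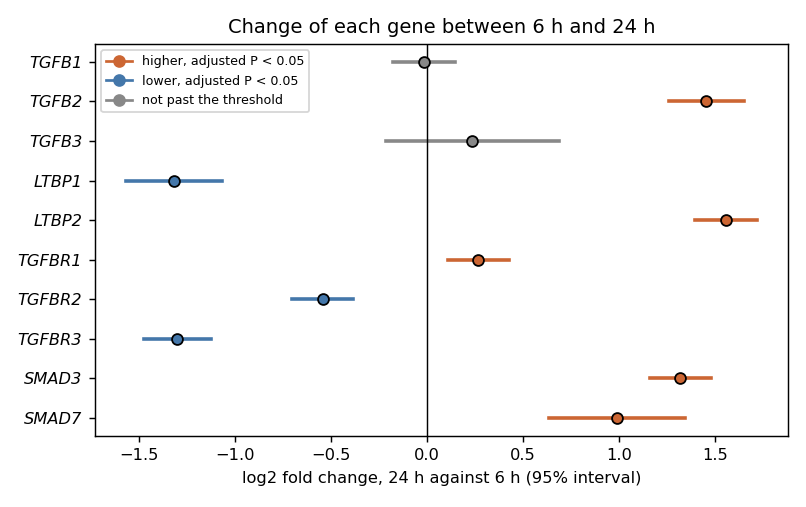
Log2 fold change of each gene at 24 h against 6 h from edgeR, with its 95% interval as a line and color for the call. LTBP2, TGFB2, SMAD3 and SMAD7 lie at 0.99 or higher, LTBP1 and TGFBR3 at -1.32 and -1.30, and the intervals of TGFB1 and TGFB3 include 0.

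On the scale of CPM per kilobase, the order of the 10 genes at 6 h was TGFBR2 (179), TGFB1 (49.8), SMAD3 (25.4), TGFBR3 (9.89), TGFBR1 (9.43), LTBP2 (5.69), LTBP1 (3.16), TGFB2 (2.61), SMAD7 (0.824) and TGFB3 (0.549). Only TGFBR3 and TGFBR1 overlapped among neighbors in this order. At 24 h SMAD3 had a higher value than TGFB1 with this length, at levels of 63.4 ± 2.34 and 49.2 ± 6.47 (SD, n = 2). LTBP2 reached 16.7 and passed both minor receptors, TGFB2 reached 7.16 and passed TGFBR3 at 4.02, and LTBP1, at 1.27, dropped below SMAD7 at 1.65. Neighbors in the 24 h order did not overlap with this length. Taking the union of all exons as length, TGFB1 and SMAD3 overlapped at 24 h, at 41.9 ± 5.51 and 40.9 ± 1.51 (SD, n = 2), so that their order was not settled. With that length LTBP1 and TGFB2 also overlapped at 6 h, as TGFBR1 and TGFBR3 did with either, and no other neighbors overlapped.

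The wider pathway was examined in 7 lists of 91 genes in all, of which 78 were tested, 34 rose and 20 fell by the same call. Beside these counts and those of each list stand the shares of all genes tested, 33.0% higher, 32.6% lower and 65.6% either way, and a median log2 fold change of 0.0029. The lists were not tested against these shares. Among 16 genes that hold latent TGF-beta or release it, 14 were tested, with 5 higher, 4 lower and a median log2 fold change of 0.068, so that 9 of 14 were called against 65.6% of all genes. THBS1, thrombospondin that can activate latent TGF-beta, rose 36.5-fold, from 535 ± 34.5 to 19486 ± 1952 normalized counts (SD, n = 2). This was 5.19 on the log2 scale (standard error 0.0995, edgeR adjusted P = 1.93e-24). ITGB8, the beta subunit of an integrin that activates latent TGF-beta, rose 5.01-fold, from 86.2 ± 4.31 to 432 ± 29.7. Its partner ITGAV had a log2 fold change of 0.30, and ITGB5 and LTBP3 had 0.21 and 0.20. ITGB1 fell by 0.55, FBN2 by 0.52, FBN1 by 0.42, and FURIN, the protease that cuts the propeptide, by 0.23 on the log2 scale. The sizes for FBN2 and FBN1 rested on the 24 h libraries: the log2 fold changes were -0.22 and -0.18 without replicate 1 and -0.89 and -0.68 without replicate 2. ITGAV had 0.17 without replicate 2 at 6 h, and LTBP3 had 0.31 without replicate 1 and 0.10 without replicate 2 at 24 h. Several of these calls were lost under an alternative. ITGAV lost its call without replicate 2 at 6 h (adjusted P = 0.0613), FBN1 (0.116) and FURIN (0.0558) without replicate 1 at 24 h, and FBN2 with DESeq2 (0.156). ITGB5 and LTBP3 lost theirs with library size alone (0.0559 and 0.0685) and without replicate 2 at 24 h (0.126 and 0.360) or at 6 h (0.0797 and 0.0750), and ITGB5 also without replicate 1 at 24 h (0.0557). With library size alone 3 genes of this list were higher, and 3 without replicate 2 at 24 h and 2 without replicate 2 at 6 h. Without replicate 1 at 24 h, 2 were lower.

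Of 5 tested co-receptors and related receptors among 6, NRP1, a co-receptor that also binds TGF-beta, rose with a log2 fold change of 0.83, and ENG, endoglin, fell by 0.38, or by 0.23 without replicate 1 at 24 h. Their median was 0.017, and a further gene was called higher without replicate 1 at 6 h, which made 2. The other 6 SMAD genes were all tested, with 0 higher, 2 lower and a median of 0.056. SMAD9, a SMAD of the BMP branch, went from 870 ± 11.4 to 409 ± 22.4 normalized counts (SD, n = 2), a log2 fold change of -1.09. SMAD6, the inhibitory SMAD of that branch, had a log2 fold change of -0.81. SMAD2, which shares the role of SMAD3, did not pass, at 0.13 on the log2 scale (adjusted P = 0.0965 in edgeR), and neither did SMAD4, with 0.027. DESeq2 also called 0 of the 6 higher. At an unadjusted P under 0.05 in edgeR, 1 was higher, SMAD1, with a log2 fold change of 0.17 and a P of 0.0463 (adjusted P = 0.0683). With upper quartile scaling 2 were called higher.

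Of 20 regulators of the signal, all tested, 10 were higher and 3 lower, so that 13 of 20 were called against 65.6% of all genes. Their median was 0.17 on the log2 scale. PMEPA1, a SMAD target that restrains SMAD activation, rose 1.96-fold from 228 ± 25.5 to 446 ± 19.7 normalized counts (SD, n = 2). ZFYVE9, the anchor that brings SMADs to the receptor, and SKI, a SMAD corepressor, had log2 fold changes of 0.58 and 0.56. STRAP, USP15 and SMURF2 had -0.28, -0.26 and -0.17. SMURF2, a ubiquitin ligase for the receptor, had an adjusted P of 0.0362 in edgeR, which was above 0.05 with DESeq2 (0.0975), with upper quartile scaling (0.0736), with no filter (0.0541), and with any library left out (0.0696 to 0.122).

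The activin arm, which signals through the same SMADs, had 15 listed genes and 8 tested, with 4 higher (33.0% of all genes), 2 lower (32.6%) and a median of 0.28. FSTL3, a follistatin that neutralizes activin, rose 2.55-fold from 236 ± 0.964 to 601 ± 19.7 normalized counts (SD, n = 2). ACVR1B, the activin type I receptor, rose 2.25-fold from 847 ± 99.3 to 1902 ± 35.1. INHBA, which encodes an activin subunit, and ACVR2A, an activin type II receptor, had log2 fold changes of 0.77 and 0.28, whereas GDF11 had -0.54. INHBE was also called lower, from 46 and 31 raw counts at 6 h to 3 and 5 at 24 h. ACVR2A lost its call with library size alone (edgeR adjusted P = 0.0544), with DESeq2 (0.117) and without replicate 1 at 24 h (0.0823) or 6 h (0.134). Of this list 6 genes had at most 3 counts in every library, FST, the follistatin gene, and INHBB among them.

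Genes commonly induced by TGF-beta moved both ways. Of 24 listed and 21 tested, 11 were higher (33.0% of all genes) and 7 lower (32.6%), with a median log2 fold change of 0.37. COL4A1, a basement membrane collagen, rose 3.02-fold from 5756 ± 379.8 to 17391 ± 2229 normalized counts (SD, n = 2). CTGF, a matricellular protein, rose 2.81-fold from 654 ± 38.7 to 1837 ± 40.5, and SNAI1, a transcription factor of epithelial-mesenchymal transition, rose 2.39-fold. COL1A1, a collagen also in the fibroblast list above, the transcription factor JUNB, and CDKN2B, an inhibitor of cyclin-dependent kinases, went the other way, with log2 fold changes of -1.57, -1.18 and -0.97. TGFBI did not pass, at -0.21 on the log2 scale (adjusted P = 0.219 in edgeR). Of 4 genes that TGF-beta is known to repress in epithelial cells, all tested, 3 were higher and 1 lower, with a median of 0.46. MYC rose 5.71-fold, from 459 ± 8.80 to 2621 ± 39.3 normalized counts (SD, n = 2). ID1 and ID2 had log2 fold changes of 0.53 and 0.39, and ID3 had -1.31.

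**Figure D4:**
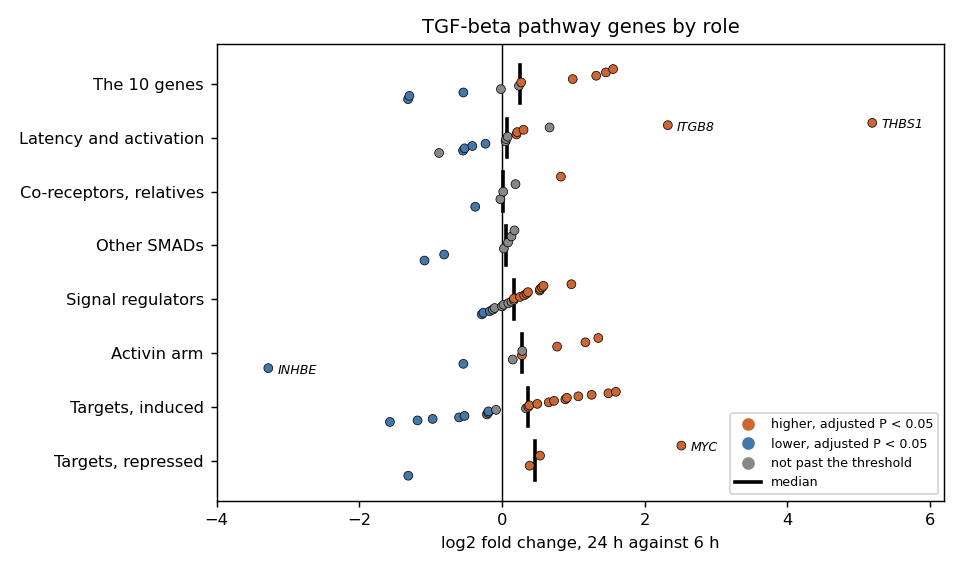
Log2 fold change at 24 h against 6 h for every tested gene of the 10 and of the 7 pathway lists, with each point a gene, color for the edgeR call and a black line at the median of the list. THBS1 at 5.19, MYC at 2.51 and ITGB8 at 2.32 lie farthest to the right, and INHBE farthest to the left.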

How the data were processed

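RNA sequencing was compared between TPC1 libraries at 6 h and 24 h of BLU6864, with groups taken from the sample labels. The authors deposited raw read counts per gene, which were used here. The submitters' processing notes name STAR 2.3, DESeq2 and hg19. The counting program and its strand setting are not given in the sources used here. The deposited table also holds mean normalized signal, log2 fold changes, a test score and p-values of the authors' own comparison, which were not used.

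Counts were filtered with filterByExpr, scaled by TMM and tested with edgeR 4.0.16 (quasi-likelihood, R 4.3.3), with Benjamini-Hochberg adjustment over the 12876 genes tested, which held 99.97% of the counts (23917056 to 27457040 a library before filtering). A gene was called at an adjusted p-value under 0.05. DESeq2 1.42.0, other scalings and filters, a replicate block and leaving out each library were alternatives. The fit was also run on simulated counts with 200 changed genes and the same spread setting for every gene. It recovered 99% of the changed genes, and 3.42% of its calls were false. These data differ from that setting, with 65.6% of genes called, so the simulation does not measure the error of the calls given here. Same-numbered libraries were not paired (correlation of their deviations 0.0757). Normalized counts are scaled to the mean effective library. Summed marker CPM use the raw library totals, and CPM per kilobase the TMM effective ones. Transcript lengths came from GENCODE v44, and upstream sequences from RefSeq (GRCh38.p14). No coordinates were converted between builds.

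The 10 genes and all lists were chosen with earlier results of these data known. Genes named are the 10 genes, genes overlapping them, and from each list up to 3 of the largest rises and falls among called genes with a mean of at least 100 normalized counts and no overlap between times. ITGB5, LTBP3, LTBP4, FURIN, SMAD1, SMAD2, SMAD4, SMAD6, INHBA, INHBB, INHBE, FST, TGFBI and the cell type markers were named after their values were seen. Exon union lengths were also applied to the order of levels, a choice made after seeing the data. Single values of some listed genes are not reported here.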

Additional observations from a re-analysis of the deposited data

How the results depend on the processing

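TGFB2, LTBP2, SMAD3 and SMAD7 stayed higher and TGFBR2, TGFBR3 and LTBP1 lower, each past the threshold, under all 11 alternatives fitted. The number of the 10 genes called higher was 4 to 5 with a library left out, and 3 were lower throughout. TGFB1, never called, turned to a log2 fold change of 0.014 with upper quartile scaling and 0.12 without replicate 1 at 24 h, and ranged from -0.15 to 0.12 with a library left out. SMAD4, never called, turned to -0.016 with library size alone, -0.0052 without replicate 2 at 24 h and -0.066 without replicate 2 at 6 h. The cause of these turns was not tested. Counted for each gene under each alternative, 24 single results lost their call. All were of TGFBR1, ITGB5, LTBP3, FURIN, ITGAV, FBN1, FBN2, SMURF2 or ACVR2A, some of them under several alternatives. A call was gained in 2 results, both for SMAD2 (adjusted P = 0.0389 in edgeR with upper quartile scaling and 0.0469 with the block).

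With the replicate block, 5 of the 10 genes were higher and 3 lower as before, 4524 of all genes were higher and 4448 lower, and 2 of the other SMAD genes were called higher, as with upper quartile scaling (2). The latency list had 3 higher genes with library size alone and 3 at an adjusted P under 0.01, and 2 to 5 higher and 2 to 4 lower with a library left out. The co-receptor list had 2 higher with no filter and 1 to 2 with a library left out. The activin list had 1 lower gene with at least 10 counts required in every library, which removes INHBE. With exon union lengths the shares at 6 h and 24 h were 93.6% and 85.0% for TGFB1, 5.60% and 14.1% for TGFB2, 0.796% and 0.876% for TGFB3, 5.66% and 9.72% for TGFBR1, and 88.95% and 87.2% for TGFBR2, with TGFBR3 at 5.40% and 3.13%. By that length, added for the levels after seeing the data, TGFB1 and SMAD3 overlapped in level at 24 h.

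With 2 libraries a time, leaving one out assumes that the lone library varies like the others. Counts of 45 to 63 for TGFB3 give a 95% interval too wide to show a change of its size.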
